A study of Rattus norvegicus with 18 samples.

Results

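The MHC class II presentation genes described here are Cd74, Ciita, RT1-Ba, RT1-Bb, RT1-Da, RT1-Db1, RT1-DMa and RT1-DMb, taken by symbol from the deposited count table. All 8 are among its 17337 genes. The filter on low counts left 5 of the 8 for testing (Ciita, Cd74, RT1-Ba, RT1-Da and RT1-Db1) among 11814 tested genes. RT1-Bb, RT1-DMa and RT1-DMb did not pass it and are given as counts only.

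The libraries come from rats of WT genotype in which a critical-size defect of the radius was filled with a printed scaffold of polycaprolactone, a slowly degrading polyester. The scaffold was bare (PCL), held calcium phosphate microparticles (CaP), or held ACPC-NP, that is, nanoparticles made from chitosan and amorphous calcium phosphate, and every group carried one of these scaffolds. Marrow, after red blood cell lysis, and bone beside the scaffold were digested to free their cells, the cells were pooled, and polyadenylated RNA was sequenced from each pool. Each scaffold was sampled at week 2 and week 6 with 3 libraries, which gives 6 groups and 18 libraries. The labels give no strain, sex or age. Whether each library stands for an animal of its own is also not said, so p-values measure the spread between these libraries, which may be technical in part.

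MHC class II molecules carry peptides from engulfed material to the cell surface, where CD4 T cells read them. Each molecule pairs an alpha with a beta chain. In the rat these are RT1-Ba with RT1-Bb, which correspond to human HLA-DQ, and RT1-Da with RT1-Db1, which correspond to HLA-DR. Cd74, the invariant chain, fills the peptide groove of new molecules until endosomal proteases such as cathepsin S and cathepsin L trim it. RT1-DMa and RT1-DMb form DM, which exchanges the last piece of the invariant chain for peptide. Ciita encodes the coactivator that switches the whole set on. In marrow and healing bone the set is known from B cells, dendritic cells and macrophages, and interferon gamma, a T and NK cell cytokine, induces it in other cells.

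CIITA does not bind DNA itself but docks on factors at an X box and a Y box upstream of class II genes. The promoter windows (250 bases before to 50 bases after the gene start, RefSeq, GRCr8) of the members are shown because 4 of the tested members varied together over the libraries, and Ciita followed them less closely. Of the 8 members, 6 have a window. The Y core ATTGG, on either strand, is in 6 of 6 windows and in 37.5% of all 33469 windows of this length. The X core AGNAAC, followed after 0 to 6 bases by GATG or GACG, is in 3 of 6 (Cd74, RT1-Da and RT1-Db1) and in 2.19% of all. The looser GNNAC with the same second element, which includes every match of the stricter form, is in 6 of 6 and in 23.9% of all. A looser X core with ATTGG starting 8 to 40 bases after it on the same strand is in 5 of 6 windows and in 0.789% of all. Those 5 stretches follow, with both elements of the X core and the Y core in capitals.
RT1-Da: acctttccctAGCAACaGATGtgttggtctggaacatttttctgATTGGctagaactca
RT1-Db1: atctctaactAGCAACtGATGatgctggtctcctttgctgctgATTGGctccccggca
RT1-Ba: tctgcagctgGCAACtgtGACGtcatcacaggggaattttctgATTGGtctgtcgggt
RT1-Bb: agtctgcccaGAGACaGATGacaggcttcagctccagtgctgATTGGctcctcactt
RT1-DMa: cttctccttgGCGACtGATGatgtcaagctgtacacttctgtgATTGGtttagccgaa

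Each stretch is written 5′ to 3′ along its gene. In GRCr8 they lie at chr20:4515322-4515380 on the plus strand for RT1-Da and at chr20:4560228-4560285 on the minus strand for RT1-Db1. The RT1-Ba stretch is at chr20:4576971-4577028 on the plus strand. Those of RT1-Bb (chr20:4604165-4604221) and RT1-DMa (chr20:4712385-4712442) are on the minus strand. The Y core starts 43 to 80 bases before the gene start, and 21 to 23 bases separate the X core from it. RT1-Bb and RT1-DMa, whose rows in the count table are at or near 0 in most libraries, hold only the looser X core before the Y core. RT1-Ba has this looser form as well. RT1-Da and RT1-Db1 hold the stricter X core before the Y core, found in 2 of 6 windows and 0.0837% of all. RT1-Ba, RT1-Da and RT1-Db1 had at least 3008 counts in every library. RT1-DOb and RT1-Db2, class II chains outside the members, also hold the stricter X core before the Y core. They had 100 to 354 and 75 to 288 counts per library. Cd74, with at least 19869 counts in every library, has neither form before a Y core. The letters describe the reference rat and say nothing about binding in these cells.

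Total counts ran from 18880604 to 27186587 per library, so counting error is small for the 5 tested members, whose lowest count in any library was 306 (Ciita). Replicate 3 of ACPC-NP at week 2 stood apart. Its score on principal component 1 (26.1% of the variance) was 91.4, with the others between -23.9 and 25.5, and Fth1, a ferritin chain, took 3.51% of its counts against 0.129% to 0.467% elsewhere. Its TMM factor was 0.706, with the others at 0.950 to 1.113. The member results of week 2 that use it are therefore also given without it. Markers of the labelled tissue were present in all groups: 6 of 6 osteoblast markers summed to between 4693 and 26288 CPM. CPM is each count as a share of its library total, expressed on the usual CPM scale with TMM factors from edgeR.

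Ciita was counted in every library, at 12.3 to 40.7 CPM. At week 2 its levels in replicates 1, 2 and 3 (the order used throughout) were 28.3, 13.8 and 24.9 CPM with PCL, 19.6, 40.7 and 12.3 CPM with CaP, and 21.0, 28.3 and 27.3 CPM with ACPC-NP. At week 6 they were 18.1, 15.9 and 14.98 CPM with PCL, 16.2, 31.3 and 14.5 CPM with CaP, and 21.1, 26.5 and 25.9 CPM with ACPC-NP. Both the highest and the lowest library of the series were CaP libraries of week 2, and the CaP groups had the widest spread of Ciita (SD 14.7 and 9.25 CPM at weeks 2 and 6). The PCL libraries of week 6 were all low and lay below all 3 ACPC-NP libraries of that week.

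Cd74, the invariant chain, was at 787 to 1919.5 CPM. At week 2 it was at 983, 787 and 1067 CPM with PCL, 894, 1442 and 951 CPM with CaP, and 981, 1045 and 1919.5 CPM with ACPC-NP. At week 6 it was at 1325, 954 and 1571 CPM with PCL, 1051, 1233 and 1076 CPM with CaP, and 892, 949 and 1041 CPM with ACPC-NP. Its highest library was the replicate of ACPC-NP at week 2 that stood apart, while the other 2 of that group lay inside the range of the PCL libraries of the same week. All 3 ACPC-NP libraries of week 6 were below all 3 CaP libraries of that week.

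RT1-Da, the alpha chain of RT1-D, had the lowest library of the series in PCL at week 2 and the highest in ACPC-NP at week 2. At week 2 it was at 239, 227 and 262 CPM with PCL, 263, 437 and 299 CPM with CaP, and 325, 335 and 708 CPM with ACPC-NP. At week 6 it was at 405, 266 and 467 CPM with PCL, 329, 359.9 and 278 CPM with CaP, and 245, 247 and 294 CPM with ACPC-NP. At week 2 the PCL libraries were below every CaP and every ACPC-NP library, and within ACPC-NP the week 6 libraries were all below those of week 2.

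RT1-Db1, the beta chain of RT1-D, was highest in PCL at week 6. At week 2 it was at 156, 149 and 168 CPM with PCL, 147, 247 and 192 CPM with CaP, and 179, 163 and 314 CPM with ACPC-NP. At week 6 it was at 238, 216 and 338 CPM with PCL, 214, 219 and 181 CPM with CaP, and 156, 136 and 191 CPM with ACPC-NP. The PCL libraries of week 6 were above all PCL libraries of week 2 and above all ACPC-NP libraries of week 6. RT1-Db2 is a second beta chain gene that resembles it, and how reads matching both were assigned is not given in the sources used here, so the split between the pair is uncertain.

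RT1-Ba, the alpha chain of RT1-B, was at 148 to 438 CPM. At week 2 it was at 168, 148 and 187 CPM with PCL, 175, 302 and 191 CPM with CaP, and 229, 217 and 438 CPM with ACPC-NP. At week 6 it was at 284, 172 and 312 CPM with PCL, 223, 243 and 188 CPM with CaP, and 176, 182 and 218 CPM with ACPC-NP. As for RT1-Da, all ACPC-NP libraries of week 2 were above all PCL libraries of that week.

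Ordered by mean, the groups fell in the same sequence for RT1-Da and RT1-Ba: ACPC-NP at week 2, PCL at week 6, CaP at week 2, CaP at week 6, ACPC-NP at week 6, PCL at week 2. The means of RT1-Da went from 456 ± 219 CPM (SD, n = 3) to 243 ± 17.6 CPM along it, and those of RT1-Ba from 295 ± 124 to 168 ± 19.7 CPM. For Cd74 the ends of the order were the same (1315 ± 524 and 946 ± 144 CPM). RT1-Db1 had PCL at week 6 first (264 ± 65.3 CPM) and PCL at week 2 last (158 ± 9.70 CPM). For Ciita ACPC-NP at week 2 was first (25.5 ± 3.97 CPM) and PCL at week 6 last (16.3 ± 1.62 CPM). In none of the 5 orders were neighbouring groups separated: their ranges overlapped at every step.

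**Figure D1:**
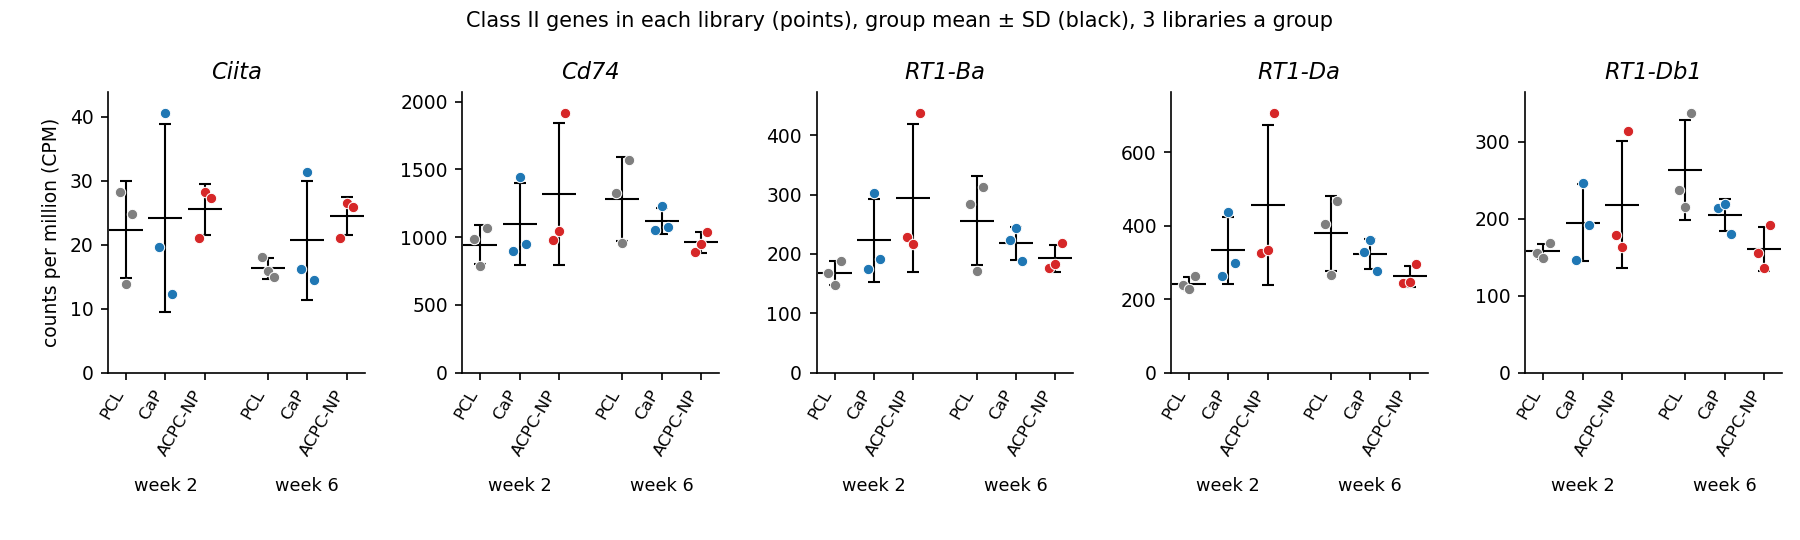
CPM (vertical axis, from 0) of the 5 tested class II genes in each library (points, replicates 1 to 3 from left to right) by scaffold and week, with the group mean and SD in black. RT1-Da and RT1-Ba of PCL at week 2 sit below all ACPC-NP points of that week, and 1 ACPC-NP point at week 2 (708 CPM for RT1-Da) lies far above the rest.

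The first question the design poses is whether the ACPC-NP scaffold differed from the other scaffolds at week 2. All 5 tested members were higher with ACPC-NP than with PCL, with a median log2 fold change of 0.48 beside -0.01 over all tested genes, but none passed the threshold (edgeR, adjusted p under 0.05). RT1-Da differed most, by 0.91 ± 0.28 on the log2 scale (SE, 95% interval 0.31 to 1.51, edgeR adjusted p = 0.128). In this comparison edgeR called 0% of genes, and 2 of 5 members against 15.7% of all genes had an unadjusted p under 0.05. Ranges were separate and higher for 2 of 5 members, RT1-Da and RT1-Ba, against 9.56% of all genes. DESeq2 called 1 member, RT1-Da (adjusted p = 0.0409), in a fit that called 5.48% of genes, and voom called 0 members and 2.62% of genes. Without replicate 3 of ACPC-NP the RT1-Da difference was 0.43 and the median 0.13. In that fit 0 of 5 members and 748 of 11943 genes had an unadjusted p under 0.05. Without replicate 1 the RT1-Da difference was 1.10 and passed in edgeR (adjusted p = 0.0328), where 7.34% of genes passed.

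Against CaP at week 2 the differences were smaller. All 5 members were above 0 with a median of 0.26, and 0 of 5 were called by edgeR, where 0% of genes were called. The counts by DESeq2 and voom were also 0, in fits that called 5.14% and 3.18% of genes. At an unadjusted p under 0.05 the count was 0 by each of the 3 (15.7% of genes by edgeR). RT1-Da differed by 0.45 ± 0.28 (adjusted p = 0.463). The direction depended on these choices: 2 of 5 members were below 0 when scaled by total count. With voom and quality weights all 5 were below 0 (median -0.20). For RT1-Da the value was -0.02 without replicate 3 of ACPC-NP, where 4 of 5 members were below 0, and -0.15 with voom and quality weights. CaP and PCL differed at week 2 by 0.46 ± 0.28 for RT1-Da (adjusted p = 1.00), with its ranges separate (3.09% of genes higher and separate) and 0 of 5 members called by edgeR, DESeq2 or voom, as for 0% of genes. The member median was 0.31, and 0.094 without replicate 2 of CaP. No member had an unadjusted p under 0.05 by edgeR (1.55% of genes) or DESeq2 (213 of 11814 genes) in that comparison. By voom 3 members had one, as did 532 of 11814 genes.

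Set against the averaged CaP and PCL groups of week 2, a comparison that shares the ACPC-NP libraries with those above, edgeR called 4.99% of genes (590 of 11814) and 0 of 5 members. All 5 were above 0 with a median of 0.37 (4 of 5 when scaled by total count, 3 of 5 with voom), and RT1-Da was at 0.68 ± 0.24 (adjusted p = 0.119). An unadjusted p under 0.05 was reached by 2 of 5 members and 19.3% of genes. DESeq2 and voom called 0 members, in fits that called 8.8% and 7.52% of genes. Without replicate 3 of ACPC-NP, RT1-Da was at 0.21 and 3 of 5 members were above 0. Without replicate 1, RT1-Da passed (0.87, adjusted p = 0.0369), as did 11.4% of genes.

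Markers of other cell types differed in the same week, none of them past the threshold against PCL. Of the macrophage markers 7 of 11 tested were above 0 against PCL (median 0.95, and 0.33 without replicate 3 of ACPC-NP), and their summed level over 12 markers was 1378 to 3637 CPM with ACPC-NP against 888 to 1175 CPM with PCL and 1018 to 1293 CPM with CaP, the highest value being that of replicate 3 of ACPC-NP. Marco, a macrophage receptor in that list, was too low to be tested. B cell markers lay the other way, with 8 of 9 below 0 (median -0.48) and sums of 1326 to 1588 CPM with ACPC-NP against 1885 to 2247 CPM with PCL. Dendritic cell markers were above 0 for 6 of 8 (median 0.65, and 0.60 without replicate 3 of ACPC-NP), while their sums overlapped (331 to 342 against 333 to 514 CPM). T cell markers were above 0 for 7 of 8 (median 0.31). The part of these cell types in the class II values was not tested. In bulk RNA, more or fewer cells of a type and more or less RNA per cell cannot be told apart.

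At week 6, 4 of the 5 members had lower values with ACPC-NP than with PCL, and none passed the threshold. RT1-Db1 was lower with ACPC-NP than with PCL by a log2 difference of -0.71 ± 0.25 (95% interval -1.24 to -0.19, edgeR adjusted p = 0.124), and Cd74, RT1-Ba and RT1-Da were also below 0. Ciita was above 0, at 0.58 ± 0.38 (adjusted p = 0.397). The member median was -0.42 beside -0.01 over all genes. edgeR called 0 of 5 members and 0% of genes, with an unadjusted p under 0.05 for 1 of 5 members and 21.9% of genes. Ranges were separate and lower for 1 member, RT1-Db1 (14.2% of genes), and separate and higher for 1, Ciita (12.8% of genes). DESeq2 called 0 members and 8.1% of genes. voom called RT1-Da and RT1-Db1 in a fit that called 34.3% of all genes, so that 2 of 5 is near the share of genes at large. Without replicate 3 of PCL the RT1-Db1 difference was -0.46 and the median -0.21.

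B cell and dendritic cell markers differed in the same direction at week 6. Of the B cell markers 7 of 9 were below 0 (median -0.64), and their sums were 1240.0 to 1598 CPM with ACPC-NP against 1272, 2812 and 3090.1 CPM in the PCL libraries. Among the PCL libraries, replicate 3 had the highest B cell sum and the highest Cd74, RT1-Ba, RT1-Da and RT1-Db1. The lowest B cell sum was in replicate 1, and the lowest values of those class II genes were in replicate 2. Dendritic cell markers were below 0 for 6 of 8 (median -0.47), with sums of 259 to 334 CPM against 362, 684 and 693 CPM. Macrophage markers were above 0 for 8 of 11 (median 0.35), and neutrophil and erythroid markers for 7 of 7 each (medians 0.44 and 0.74). Their part in the class II values was not tested.

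The remaining comparisons of week 6 gave smaller values. ACPC-NP against CaP had 4 of 5 members below 0 (median -0.22), RT1-Db1 at -0.35 ± 0.25 (adjusted p = 0.639) and Ciita at 0.24 ± 0.38 (adjusted p = 0.858), with Cd74 separate and lower (12.5% of genes). CaP against PCL had the same 4 members below 0 (median -0.23; without replicate 3 of PCL, 3 of 5 and -0.022), RT1-Db1 at -0.36 ± 0.25 and Ciita at 0.34 ± 0.38 (adjusted p = 1.00 for both). Against both averaged, ACPC-NP had RT1-Db1 at -0.53 ± 0.22 (adjusted p = 0.190) and Ciita at 0.41 ± 0.32 (adjusted p = 0.501). In these 3 comparisons edgeR called 0 of 5 members and 0% of genes. An unadjusted p under 0.05 was reached by 1 member, RT1-Db1 against the mean (20.5% of genes), and by none against CaP (9.34% of genes) or in CaP against PCL (2.57% of genes). voom called RT1-Db1 against the mean (29.3% of genes called) and DESeq2 called no member in the 3. The share of genes called by DESeq2 was 0.195% against CaP, 0% in CaP against PCL and 6.79% against the mean.

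From week 2 to week 6 the member values were mostly lower with ACPC-NP and higher with PCL, with neither difference past the threshold. With ACPC-NP all 5 were below 0 (median -0.45; 4 of 5 when scaled by total count), and RT1-Da had the smallest p at -0.80 ± 0.28 (edgeR adjusted p = 0.147), with separate ranges (9.30% of genes lower and separate). That value was -0.31, and the median -0.07, without replicate 3 of week 2. With PCL 4 of 5 were above 0 (median 0.61), led by RT1-Db1 at 0.74 ± 0.25 (edgeR adjusted p = 0.398). Ciita was at -0.45 ± 0.38 (adjusted p = 0.736). RT1-Da and RT1-Db1 were separate and higher (7.76% of genes). With CaP the direction depended on single choices. The median was -0.03, with 0.29 and all 5 above 0 without replicate 2 of week 2, and -0.27 and all 5 below 0 with voom. Ciita was at -0.22 ± 0.38 and RT1-Db1 at 0.07 ± 0.25 (adjusted p = 0.975 and 0.997).

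edgeR called 0 of 5 members within each scaffold, with 0.00846% of genes called for ACPC-NP and 0% for PCL and CaP. An unadjusted p under 0.05 was reached by 2 members with ACPC-NP (19.8% of genes), 3 with PCL (9.87%) and 0 with CaP (4.82%). The first count was 0 without replicate 3 of ACPC-NP at week 2 (1196 of 11943 genes). The second was 0 without replicate 3 of PCL at week 6 (685 of 11965 genes). It was 1 to 4 without each of the other PCL libraries, where 571 to 2001 genes reached an unadjusted p under 0.05. DESeq2 called no member in the 3, where it called 6.65% of genes with ACPC-NP, 0.324% with PCL and 0.0424% with CaP. voom called RT1-Db1 with PCL, where it called 14.8% of genes. Averaged over the scaffolds, week 6 and week 2 differed by a median of -0.01 (0.06 when scaled by total count, and 0.14 with 4 of 5 members above 0 without replicate 3 of ACPC-NP at week 2), with Ciita at -0.24 ± 0.22 (adjusted p = 0.625) and RT1-Db1 at 0.12 ± 0.14 (adjusted p = 0.718). In that average 0 of 5 members and 0.686% of genes (81) were called by edgeR. Neither DESeq2 nor voom called a member, in fits that called 3.24% and 13.8% of genes. No member had an unadjusted p under 0.05 by edgeR (14.6% of genes) or DESeq2 (1910 of 11814 genes). By voom 1 member had one, as did 3711 of 11814 genes.

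The change of the scaffold difference between the weeks was tested directly as an interaction. For ACPC-NP against PCL 4 of the 5 members were below 0, with a median of -1.18 beside -0.05 over all genes. RT1-Da was at -1.44 ± 0.40 (95% interval -2.29 to -0.60, edgeR adjusted p = 0.278), and Ciita was above 0, at 0.39 ± 0.54 (adjusted p = 0.759). edgeR called 0 of 5 members and 0% of genes. Cd74, RT1-Ba, RT1-Da and RT1-Db1, 4 of 5 members, had an unadjusted p under 0.05, as did 15% of genes. DESeq2 called RT1-Da (adjusted p = 0.0498, 1.21% of genes called), and voom called RT1-Da and RT1-Db1 (16.5% of genes called). Without replicate 3 of ACPC-NP at week 2 the median was -0.80 and RT1-Da was at -0.95. In that fit 3 of 5 members had an unadjusted p under 0.05, as did 993 of 11943 genes.

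The other interactions were smaller. For ACPC-NP against CaP the median was -0.51 (-0.16 without replicate 3 of ACPC-NP at week 2), with RT1-Da at -0.75 ± 0.40 (adjusted p = 0.402) and Ciita at 0.16 ± 0.54 (adjusted p = 0.921). For CaP against PCL it was -0.64 (-0.35 without replicate 2 of CaP at week 2), with RT1-Db1 at -0.67 ± 0.35 and Ciita at 0.23 ± 0.54 (adjusted p = 1.00 for both). edgeR called 0 of 5 members and 0% of genes in each, none at an unadjusted p under 0.05, against 14.2% and 1.68% of genes. DESeq2 and voom called none. For ACPC-NP against CaP they called 1.69% and 1.43% of genes, and for CaP against PCL 0.0169% and 0%. By voom 3 members and 1427 of 11814 genes had an unadjusted p under 0.05 in CaP against PCL.

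**Figure D2:**
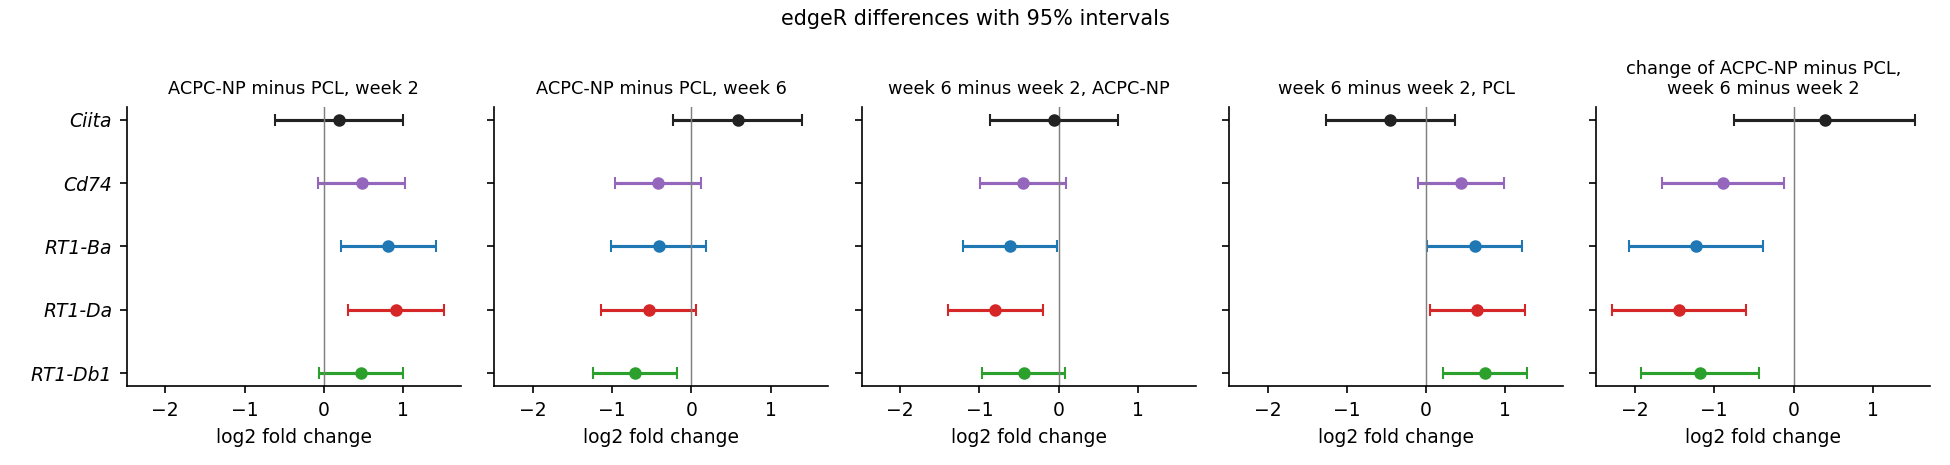
log2 fold changes (horizontal axis, points) with 95% intervals from edgeR for the 5 tested genes: ACPC-NP against PCL in either week, the later against the earlier week for these 2 scaffolds, and the interaction. Cd74, RT1-Ba, RT1-Da and RT1-Db1 lie to the right of 0 at week 2 and to the left at week 6, where Ciita lies at 0.58.

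Over all 15 comparisons, which overlap in their libraries, edgeR called 0 of 75 member tests, DESeq2 2 and voom with quality weights 6. The share of all genes called reached, in single comparisons, 4.99% with edgeR, 8.8% with DESeq2 and 34.3% with voom. An unadjusted p under 0.05 was reached in 15 of the 75 by edgeR, 15 by DESeq2 and 23 by voom. Over all genes that share ran, by comparison, from 1.55% to 21.9% with edgeR, 1.80% to 23.7% with DESeq2 and 4.50% to 44.3% with voom.

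The levels of Cd74, RT1-Ba, RT1-Da and RT1-Db1 varied together from library to library. RT1-Ba and RT1-Da, the alpha chains, were the closest pair, with Pearson r = 0.985 and Spearman rho = 0.948 between their log2 CPM over 18 libraries. The SD of their log2 ratio was 0.074. Within groups, after each group mean was taken out, r was 0.986, and without the 2 libraries farthest from the median it was 0.970. Cd74 had r = 0.956 with RT1-Ba, 0.946 with RT1-Da and 0.883 with RT1-Db1 (rho 0.829, 0.822 and 0.820). RT1-Db1 was the loosest of the 4, with r = 0.859 to RT1-Ba and 0.878 to RT1-Da. Without the library that stood apart, r among these 4 genes was 0.824 to 0.977. The libraries share depth and scaling, and no p is given for the 10 pairs of the 5 members.

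Ciita, the gene of their coactivator, followed this pattern less closely. Its r was 0.331 with Cd74, 0.325 with RT1-Ba, 0.247 with RT1-Da and -0.002 with RT1-Db1 (rho 0.304, 0.257, 0.205 and 0.013). Within groups the 4 values were 0.545, 0.495, 0.428 and 0.307, and without the library that stood apart 0.274, 0.268, 0.160 and -0.107. Replicate 3 of PCL at week 6 shows the gap: the 4 other genes averaged 0.60 above their mean over all libraries on the log2 scale, and Ciita was 0.49 below its own. In replicate 2 of CaP at week 2 both were high, at 0.42 and 0.94. In replicate 3 of ACPC-NP at week 2 they were at 0.92 and 0.37.

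**Figure D3:**
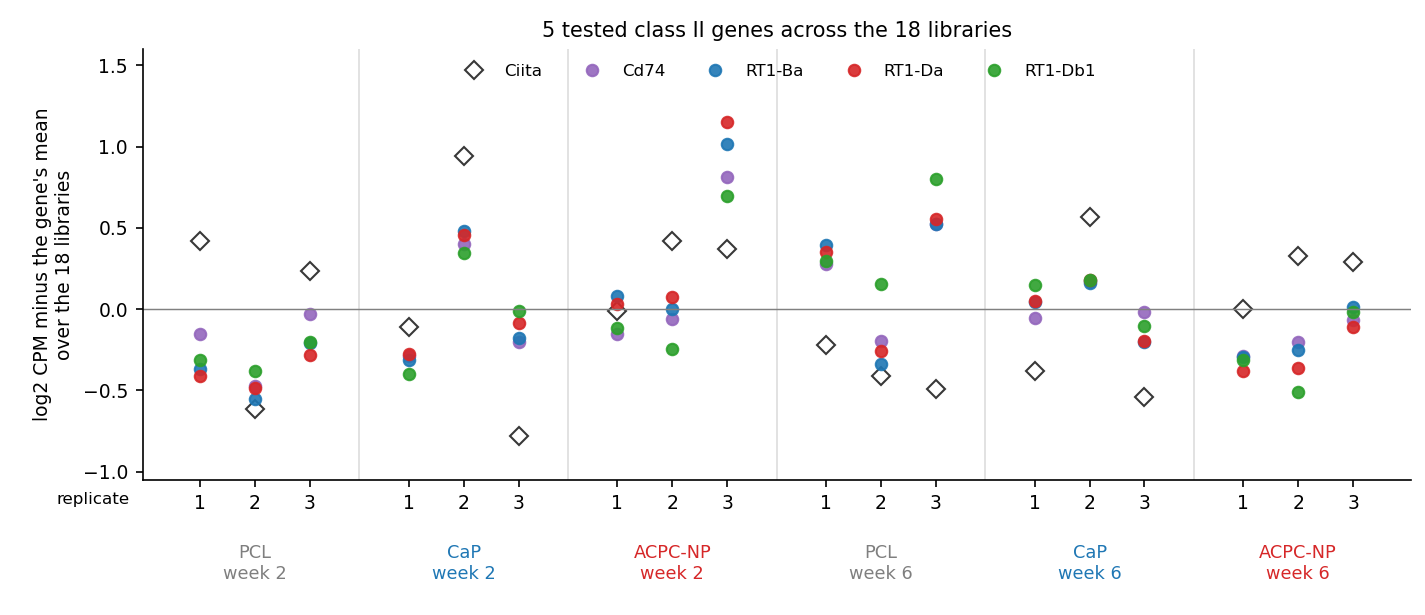
log2 CPM of the 5 tested genes minus each gene's own mean over the 18 libraries (vertical axis), by library in its group (horizontal axis), with Ciita as open diamonds. The 4 filled symbols cluster in each library, highest in replicate 3 of ACPC-NP at week 2, and the diamonds lie apart from them in replicate 3 of PCL at week 6.

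The 10 tested genes most like the mean of the 5 members over the 18 libraries were, by Pearson r of log2 CPM, Spin1 (0.802), RGD1560455 (0.792), Blcap (0.787), Il18 (0.775), Aen (0.773), Il15 (0.768), Tsc22d3 (0.767), Trim26 (0.765), Rab14 (0.763) and Eif4e2 (0.762). Il18 and Il15 encode cytokines. Without the library that stood apart these values fell to between 0.573 and 0.681, and Spin1 went from rank 1 to rank 5. The 10 most like Ciita were Chfr (0.874), Nmi (0.854), Atp6v0a2 (0.848), Rab39a (0.843), Zdhhc24 (0.835), Ptpn6 (0.832), Hps3 (0.817), Coa5 (0.798), Ptgdr2 (0.790) and B3galt4 (0.788). Without that library they were at 0.781 to 0.885. Ptpn6 encodes a phosphatase of blood cells, and Atp6v0a2 a subunit of the proton pump that acidifies vesicles.

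The genes that work upstream and downstream of class II were read in the comparison of ACPC-NP with the averaged CaP and PCL groups of week 2, the only one between scaffolds in which edgeR called genes. Of the endosomal proteases and reductase that process antigen and the invariant chain, 6 of 8 rose and were called, with a median of 1.36. Over all genes the share called was 4.99%, mostly higher (577 of 590). Ctsl, cathepsin L, was at 211, 571 and 3541 CPM with ACPC-NP against 56.2 to 150 CPM in the 6 other libraries of week 2, a log2 difference of 3.93 ± 0.62 (edgeR adjusted p = 0.00805). Lgmn, an asparaginyl endopeptidase, rose by 2.58 ± 0.43 (adjusted p = 0.00869), Ctsb, cathepsin B, by 2.07 ± 0.40 (adjusted p = 0.0140) and Ctss, cathepsin S, by 1.13 ± 0.22 (adjusted p = 0.0143). Ctsd and Ctsz were the other two, and Ctsh and Ifi30, the lysosomal thiol reductase, were not called. All 3 ACPC-NP libraries were above all CaP and PCL libraries of that week for Ctsl, Lgmn, Ctsb and Ctss, as for 5.8% of all genes. Without replicate 3 of ACPC-NP 0 of 8 were called, the median was 0.65, and Ctsl was at 2.04 ± 0.42 (adjusted p = 0.123). Only 0.0837% of genes were called in that fit.

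Among the genes that signal to T cells beside class II, 2 of 5 were called higher (4.99% of all genes called). They were Cd274, the checkpoint ligand PD-L1, and Pdcd1lg2, its relative PD-L2. Cd274 was at 6.65, 38.9 and 322 CPM with ACPC-NP against 2.38 to 4.35 CPM with CaP and PCL, and it alone stayed called without replicate 3 of ACPC-NP (2.92 ± 0.40, adjusted p = 0.0190). Cd40, Cd80 and Cd86, the activating receptor and ligands, were at 0.04, 0.43 and 0.49 (adjusted p = 0.959, 0.519 and 0.331). Of the interferon gamma pathway 1 of 9 rose, Ifngr2, the second receptor chain, by 1.34 ± 0.30 (edgeR adjusted p = 0.0239). With 4.99% of all genes called, 1 gene is not read as a result about the pathway. Ifngr2 was at 0.43 and not called without replicate 3. Irf1, a transcription factor below it, was at 0.56 (adjusted p = 0.152). Ifng itself had 0 to 8 counts per library and was not tested.

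No gene of the other lists around class II was called in that comparison. The 6 tested partners of CIITA at the promoter (the RFX, CREB and NF-Y factors, with Rfxap too low to test) had a median of -0.03, and the 4 genes of class II turnover one of 0.18 (-0.099 and 0.086 without replicate 3 of ACPC-NP). The other class II chains RT1-DOa, RT1-DOb and RT1-Db2 were all below 0 (median -0.44, and -0.54 without that library). RT1-DOa and RT1-DOb form DO, a partner of DM that is known from B cells. They stood at 4.60 and 5.61 CPM in replicate 3 of ACPC-NP, the library with the highest RT1-Da. Replicates 1 and 2 of that group had 3.66 and 4.02 CPM of RT1-DOa and 5.31 and 6.15 CPM of RT1-DOb. Class I presentation, the parallel pathway for peptides from inside the cell, had 0 of 14 called and a median of 0.13 (-0.042 without replicate 3 of ACPC-NP). B2m, the light chain of class I, was at 0.77 ± 0.28 (adjusted p = 0.131). In the same comparison, where 4.99% of all genes were called, 5 of 11 macrophage markers (among them Cd68 and Csf1r) rose. So did 1 of 8 dendritic cell markers (Batf3) and 1 of 8 T cell markers (Icos). A single call in a list is not read as a result about that cell type. None of these 7 genes stayed called without replicate 3, where 0.0837% of all genes were called.

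**Figure D4:**
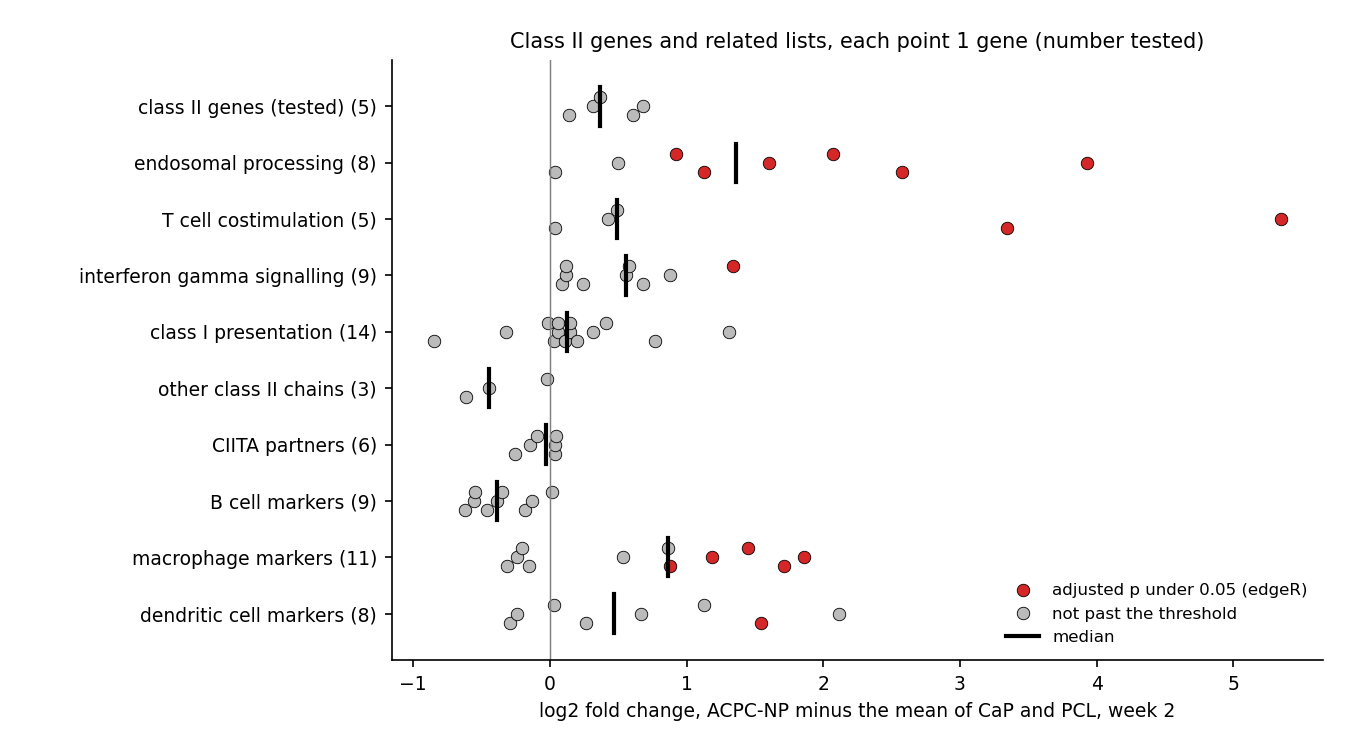
log2 fold change (horizontal axis) of ACPC-NP against CaP and PCL averaged, week 2, for each tested gene (point) of the class II set and of related lists (vertical axis), with list medians as bars and genes past the edgeR threshold in red. The 5 class II points are grey with a median of 0.37, and 6 of 8 endosomal processing genes are red, beside 4.99% of all genes called.

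RT1-Bb, the beta chain that pairs with RT1-Ba, was at 0 to 2 counts in 16 libraries. In the other 2 it was counted 958 times (replicate 3 of CaP at week 6, 45.5 CPM) and 904 times (replicate 2 of ACPC-NP at week 6, 40.8 CPM). RT1-Ba, its partner, was at 3965 and 4036 counts in those 2 libraries and at 3731 to 7801 counts over all 18. In CPM RT1-Ba was at 188 and 182 in those 2 libraries, beside a median of 204 over all 18. The other libraries of their groups had 0 counts of RT1-Bb. RT1-Bb was the 1 gene of the 17337 with at most 2 counts in 16 libraries and at least 200 in another. No test was made of so uneven a row.

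RT1-DMa had 0 counts in all 18 libraries, and RT1-DMb had 0 in 11 and 1 or 2 in the other 7, with its 2 counts in replicate 3 of ACPC-NP at week 2. A count of 0 allows a level of up to 3 counts, 0.104 to 0.168 CPM in these libraries, as far as counting error goes. Genes that nearly all cells use are also at or near 0 in this table. Brd2, which lies in the same chromosomal region, had 0 to 5 counts, Hprt1, a purine salvage enzyme, 0 to 2, and Tap2, the partner of Tap1 in peptide transport, 0 to 5. In all 2709 genes of the table are listed at 0 in every library. The rows of RT1-Bb, RT1-DMa and RT1-DMb are therefore given as listed, and nothing is read from them about these genes in the cells. No source used here gives the strand setting or the handling of reads that match several places.

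**Figure D5:**
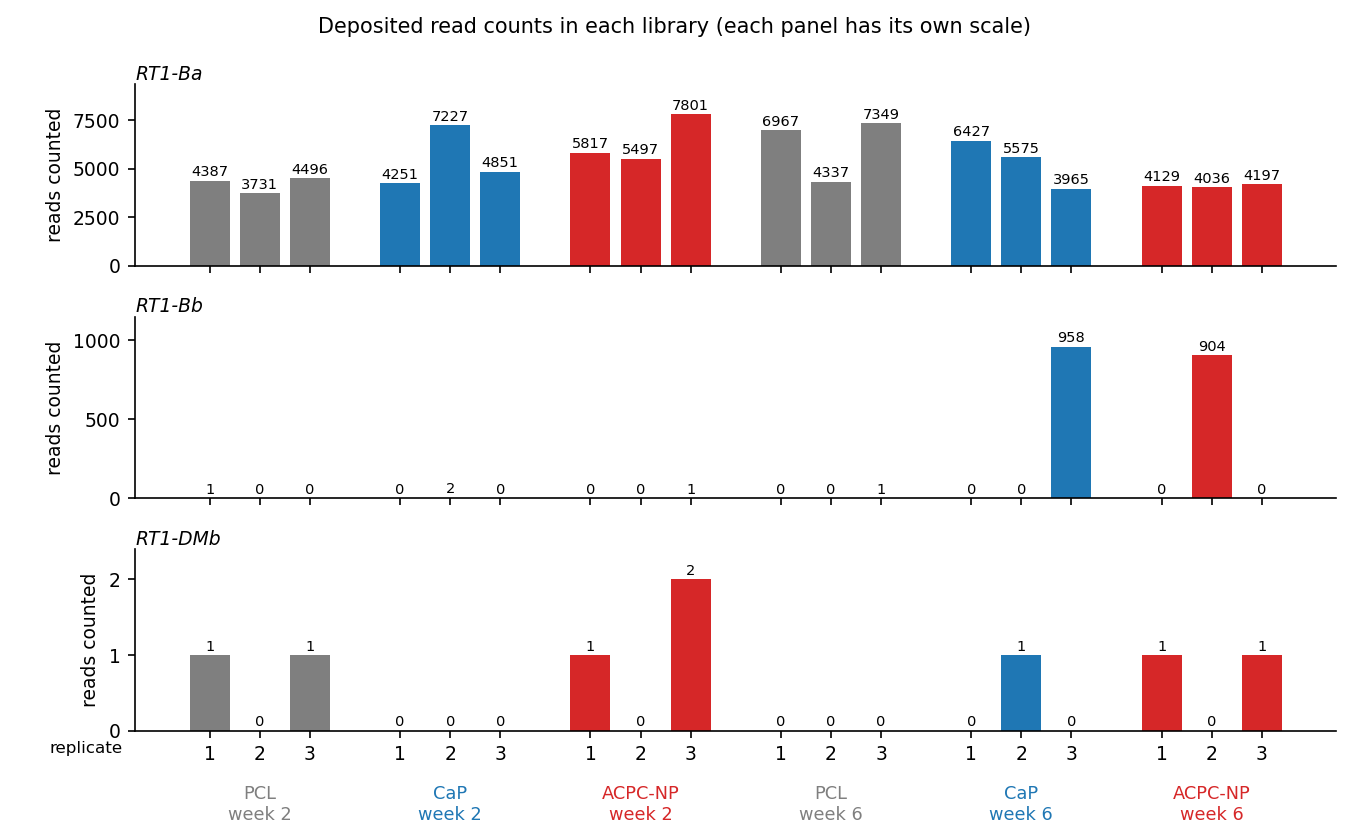
Deposited read counts (vertical axes, each from 0 on its own scale) of RT1-Ba, RT1-Bb and RT1-DMb in the 18 libraries by group. RT1-Ba has 3731 to 7801 reads throughout, RT1-Bb only in 2 libraries of week 6 (958 and 904 reads), and RT1-DMb at most 2 times.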

How the data were processed

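RNA of 18 libraries was sequenced. The submitters' processing notes name bcl2fastq 2.20.0, STAR 2.7.9a, featureCounts, Subread 2.0.1 and the build Rnor_6.0. No source used here gives the annotation, the strand setting or the filters. The authors deposited read counts per gene symbol, not normalised, and a matching table of normalised signal, which equals each count divided by a size factor per library and was used only to check those factors. Columns were tied to samples by their descriptions.

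The counts were tested with edgeR 4.0.16 (R 4.3.3): filterByExpr (minimum count 10, minimum total 15), TMM, a term for each of 6 groups over all 18 libraries, robust quasi-likelihood fit (12 residual degrees of freedom), and Benjamini-Hochberg adjustment over 11814 genes within each of 15 comparisons, threshold 0.05. An SE is the log2 fold change divided by the root of its F statistic. Log2 CPM used a prior count of 2. Tested genes held 99.98% of counts, and the common biological coefficient of variation was 26%. Counts of libraries in a group differed by a chi-square of at least 30.2 per degree of freedom, so none was a duplicate. The test was checked on simulated counts.

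The members and the related lists were chosen with earlier results of these data known. All members were given in every library. Fold changes were printed for members past the threshold or, where none passed, for the one with the smallest p in each direction. From a list, up to 4 called genes with the smallest p were given, otherwise up to 3 as values. Symbols of the turnover list were matched by their older names, March1 and March8. Alternatives were DESeq2 1.42.0, voom with quality weights (limma 3.58.1), edgeR with DESeq2's size factors, no filter, only the groups compared, a replicate block, each library left out and, added after the data were seen, scaling by total count. Promoters and neighbours are from RefSeq tables of GRCr8, a build other than that of the files. Some genes of the related lists are not reported here by name.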

Additional observations from a re-analysis of the deposited data

How the results depend on the processing

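The count of members called, 0 by edgeR in all 15 comparisons, was the same in 222 and higher in 8 of the fits under the alternatives. DESeq2 gave 1 in ACPC-NP against PCL at week 2 and 1 in the interaction of ACPC-NP and PCL. With voom the counts were 2 in ACPC-NP against PCL at week 6, 1 in ACPC-NP against the mean at week 6, 1 in week 6 against week 2 of PCL and 2 in the interaction of ACPC-NP and PCL. Leaving out single libraries gave 0 to 1 in ACPC-NP against PCL and against the mean at week 2, the 1 without replicate 1 of ACPC-NP. Of the values of named members, 373 kept direction and call, 8 passed the threshold in place of missing it, and 11 changed sign. With voom Ciita was at -0.022 in the interaction of CaP and PCL, RT1-Da at -0.15 in ACPC-NP against CaP at week 2 and RT1-Db1 at -0.12 in week 6 against week 2 of CaP. Over single libraries left out, Ciita ran from -0.062 to 0.54 in CaP against PCL at week 6, from -0.64 to 0.39 in week 6 against week 2 of CaP, from -0.45 to 0.58 in the interaction of ACPC-NP and CaP and from -0.17 to 0.84 in that of CaP and PCL. RT1-Da ran from -0.020 to 0.70 in ACPC-NP against CaP at week 2 and RT1-Db1 from -0.10 to 0.29 in week 6 against week 2 of CaP. The cause was not tested. Scaling by total count moved the median of all genes to -0.16 in ACPC-NP against PCL at week 2, where RT1-Da was at 0.66, and called no member. In that comparison it called 0.271% of genes.

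Same-numbered libraries did not deviate together (r from -0.327 to 0.42, median 0.03), and the labels give the numbers no shared source. With the replicate block RT1-Da was at 0.87 in ACPC-NP against PCL at week 2 and -1.40 in the interaction of ACPC-NP and PCL, and 0 members were called in each comparison. The genes called went from 0 to 427 in ACPC-NP against PCL at week 6 and from 590 to 239 in ACPC-NP against the mean at week 2. The highest correlation of a library's deviations was with a library of its own number in 8 of 18. With 3 libraries a group the edgeR interval of the RT1-Da difference at week 2 was wide, from 0.31 to 1.51 against PCL. That interval was not adjusted for the choice of RT1-Da by its smallest p, and the edgeR adjusted p was 0.128. Against CaP the interval ran from -0.15 to 1.05. Without replicate 3 of ACPC-NP at week 2 the difference from PCL was 0.43.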

Other observations

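Within groups, Ciita varied with genes known from B cells more than with the class II chains. After group means were taken out, Ms4a1, which encodes CD20, had Pearson r = 0.846 with Ciita over the 18 libraries, Fcer2, the low-affinity IgE receptor, 0.799, and RT1-DOa, the alpha chain of DO, 0.797. The same genes had r = 0.236, 0.457 and 0.528 with the mean of Cd74, RT1-Ba, RT1-Da and RT1-Db1. Ifi30, the lysosomal thiol reductase, lay the other way, at 0.174 with Ciita and 0.877 with that mean. Without replicate 3 of ACPC-NP at week 2, Ms4a1, Fcer2 and RT1-DOa were at 0.857, 0.807 and 0.797 with Ciita and 0.399, 0.683 and 0.602 with the mean, and Ifi30 at 0.190 and 0.758. These genes were picked from the fixed lists after their values were seen, the libraries share depth and scaling, and no p is given.

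Several class I rows of the same RT1 family had their extreme in replicate 3 of ACPC-NP at week 2, which also had the highest counts of RT1-Da and RT1-Ba. RT1-N2 had 0 counts there and at least 14 in each other library. RT1-S2 had 8 counts against at least 64 elsewhere, and RT1-A3 had 76 against at least 291. RT1-CE16 had 6522 counts there, with a median of 1196 over the 18 libraries. That library stood apart from the series as a whole (TMM factor 0.706), and how many other genes had their extreme there was not counted. Other rows of the family, such as RT1-CE14 and RT1-CE15, had both extremes in other libraries. These rows were chosen after their values were seen, and how reads shared by near-identical RT1 genes were assigned is not given in the sources used here.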
